A study of Homo sapiens with 14 samples.

Results

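The miR-17-92 cluster is a run of 6 miRNA hairpins in the host transcript MIR17HG, and the deposited read table held 9 mature miRNAs chosen by name as its arms, out of 2848 entries in all. They are hsa-miR-17-5p and hsa-miR-17-3p, hsa-miR-18a-5p and hsa-miR-18a-3p, hsa-miR-19a-3p, hsa-miR-19b-3p, hsa-miR-20a-5p and hsa-miR-20a-3p, and hsa-miR-92a-3p (the human prefix is dropped below), and all 9 were abundant enough to be tested. They were measured by small RNA sequencing in PANC-1, an established human cell line derived from a pancreatic ductal carcinoma, as 14 libraries in 7 groups of 2, lettered A and B. PA cells received 20 µg/ml of proanthocyanidins from grape, tannins built from flavan-3-ol units (PA), and were harvested at 3, 12 or 24 h. Control cells received DMSO, the solvent used for comparison, and were harvested at 0, 3, 12 or 24 h. All groups were grown in the same medium with serum and came from this one cell line. The series text speaks of a biological replicate, but the labels do not say that A and B were separate cultures, so the p-values measure the spread between these libraries, which may be technical.

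The cluster is transcribed as one long primary RNA that Drosha and Dicer process into separate mature miRNAs, which then load into Argonaute and repress mRNAs that pair with their seed. MYC and the E2F factors are known to activate it, it is amplified or highly expressed in many tumours, and it is often called an oncogenic miRNA cluster. The miR-17 and miR-20a arms are known to act on E2F1 and CDKN1A, miR-18a and miR-19 on the anti-angiogenic genes CTGF and THBS1, and miR-92a on integrin ITGA5 in endothelial cells.

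The mature sequences decide which targets each arm can pair with and how easily reads of related miRNAs can be told apart, so they are shown first, 5′ to 3′ from RefSeq (GRCh38.p14), with the seed (bases 2 to 8) in capitals. miR-17-5p and miR-20a-5p carry one seed, and differ by C1U and C12U, with positions counted from 1 at the 5′ end of miR-17-5p.
miR-17-5p: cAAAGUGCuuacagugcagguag
miR-20a-5p: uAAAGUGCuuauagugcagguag

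miR-18a-5p has a seed close to theirs but not the same.
miR-18a-5p: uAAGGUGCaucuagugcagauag

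miR-19a-3p and miR-19b-3p share a seed and differ by a single base, U11C.
miR-19a-3p: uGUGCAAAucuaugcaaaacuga
miR-19b-3p: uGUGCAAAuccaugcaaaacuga

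miR-92a-3p carries the seed of the miR-92 family.
miR-92a-3p: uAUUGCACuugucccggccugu

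The 3 remaining members come from the arm opposite to miR-17-5p, miR-18a-5p and miR-20a-5p, and each has a seed of its own.
miR-17-3p: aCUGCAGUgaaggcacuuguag
miR-18a-3p: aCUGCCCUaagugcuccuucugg
miR-20a-3p: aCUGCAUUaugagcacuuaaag

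In RefSeq the host gene MIR17HG spans chr13:91347687-91354577 on the plus strand (GRCh38.p14). The 6 hairpins lie within 787 bases, from 91350605 to 91351391. In the GENCODE 29 annotation of the same genome, 3 MIR17HG transcripts span the hairpins, which are exonic in 2 and intronic in 1. The hairpins are printed in their order along the transcript, with the arms counted here in capitals, because members of one hairpin share a precursor while members of different hairpins share only the primary transcript.
MIR17: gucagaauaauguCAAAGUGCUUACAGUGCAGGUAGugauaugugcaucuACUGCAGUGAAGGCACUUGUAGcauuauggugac
MIR18A: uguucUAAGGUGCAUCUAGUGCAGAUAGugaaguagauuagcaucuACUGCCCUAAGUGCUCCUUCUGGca
MIR19A: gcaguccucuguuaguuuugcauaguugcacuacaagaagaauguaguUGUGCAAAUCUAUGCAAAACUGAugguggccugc
MIR20A: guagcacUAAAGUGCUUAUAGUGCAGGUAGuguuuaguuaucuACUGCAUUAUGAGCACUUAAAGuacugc
MIR19B1: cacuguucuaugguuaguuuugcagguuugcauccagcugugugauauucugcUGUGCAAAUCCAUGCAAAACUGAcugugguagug
MIR92A1: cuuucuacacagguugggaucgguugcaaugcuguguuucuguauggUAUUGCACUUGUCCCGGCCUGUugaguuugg

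Neighbouring hairpins are separated by 62, 69, 92, 56 and 35 bases in that order. miR-19b-3p and miR-92a-3p are each encoded a second time, in MIR19B2 and MIR92A2 of the miR-106a-363 cluster on chromosome X. The identical mature sequences cannot be split by locus, so their values do not separate the copies. How a read that matches both copies was counted is not given in the sources used here.

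Total counts per library were 1032391 to 3111014, and 810 entries passed the filter on low counts. The 7 miRNAs listed as marks of pancreatic cancer lines, miR-21-5p among them, were all tested and summed to 168807 to 258755 CPM (the read count scaled by library total and by TMM, edgeR's trimmed-mean factor). Haematopoietic markers summed to 1.64 to 6.37 CPM, liver and muscle markers to at most 5.58 CPM, acinar and islet markers to 1.64 to 10.02 CPM and red blood cell markers to 296 to 591 CPM. Nearly all of the red blood cell sum was miR-486-5p, the only 1 of its 3 markers tested, while miR-451a and miR-144-3p had 13 and 46 counts over all libraries. Fibroblast and endothelial markers summed to 813 to 1532 CPM, more than the other lists outside the cancer line. Among them miR-126-3p and miR-126-5p averaged 583 and 626 CPM, miR-143-3p 35.2 CPM and miR-145-5p 4.13 CPM. The means of miR-143-3p and miR-145-5p cover a wide spread, from 1.82 to 149 CPM and from 0 to 23.8 CPM. Both were highest in DMSO 0 h B. In such bulk RNA, fewer cells of one kind and less of a miRNA per cell cannot be told apart. Both libraries of DMSO 12 h were distant from the remaining DMSO times: 134 of 810 entries differed between DMSO 12 h and the other DMSO times (16.5%), at the threshold used throughout for a call, an edgeR adjusted p under 0.05. A and B also differed from each other by more than sampling noise in every group. Chi-square over degrees of freedom, which also grows with depth, was lowest in DMSO 3 h (13.0) and highest in DMSO 12 h (78.0). By Spearman's rho between A and B, PA 3 h was the most alike (0.959) and DMSO 12 h the least (0.910), with DMSO 3 h at 0.943.

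In level, the members ranged from abundant to scarce. Averaged over the 14 libraries, miR-20a-5p reached 4220 CPM, miR-19b-3p 3294 CPM, miR-92a-3p 2769 CPM and miR-17-5p 2002 CPM, which are ranks 34, 38, 41 and 48 among all 2848 entries. miR-19a-3p averaged 647 CPM, miR-17-3p 371 CPM, miR-18a-5p 254 CPM, miR-20a-3p 57.2 CPM and miR-18a-3p 15.8 CPM. The mature miRNAs are all 22 or 23 bases long, so length does not enter these levels, but how well each sequence ligates and amplifies is included in them and was not measured. Neighbours in this order were not always separated: miR-19b-3p was above miR-92a-3p in 7 of 14 libraries, miR-20a-5p above miR-19b-3p in 11 and miR-19a-3p above miR-17-3p in 11. miR-17-5p was above miR-19a-3p, miR-18a-5p above miR-20a-3p and miR-20a-3p above miR-18a-3p in all 14. Together the members took 0.764% to 1.85% of all counts.

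**Figure D1:**
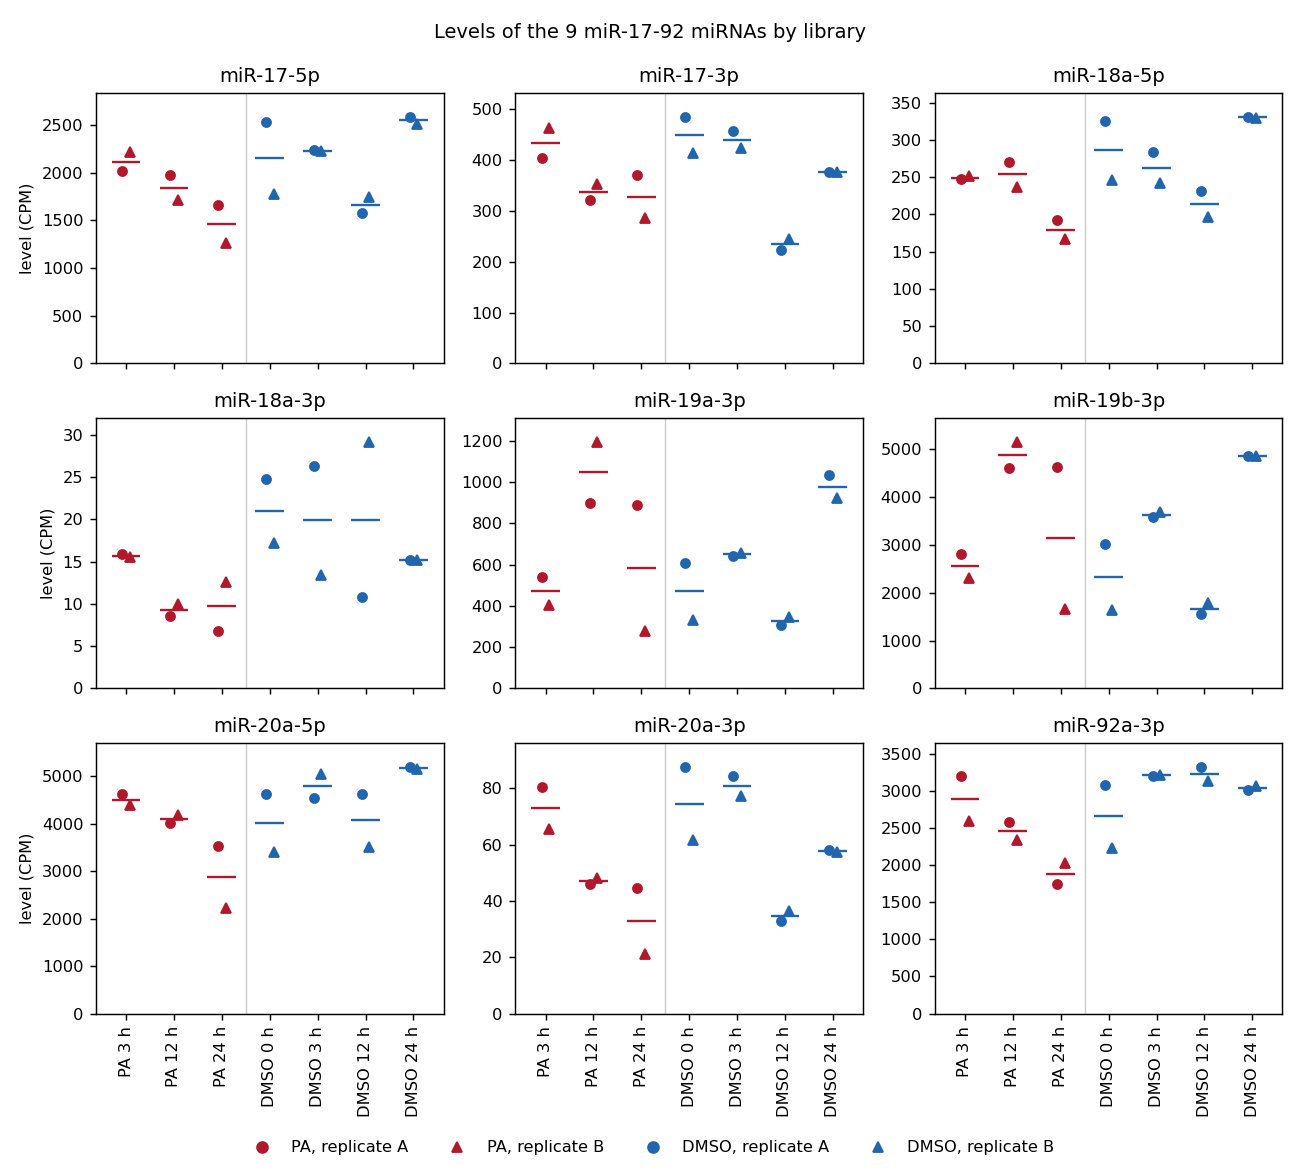
Level of each of the 9 miR-17-92 miRNAs in CPM (linear axis from 0) in each library, PA groups in red and DMSO groups in blue, circles for replicate A, triangles for replicate B and a bar at the mean of 2. All 9 lie lower in PA than in DMSO at 24 h. At 12 h the 2 miR-19 arms, miR-17-3p, miR-18a-5p and miR-20a-3p lie higher in PA without overlap. miR-18a-3p and miR-92a-3p lie lower there. The DMSO 12 h libraries hold 310.0 and 346 CPM of miR-19a-3p.

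At 24 h the 2 abundant arms with the miR-17 seed were lower in PA. miR-17-5p had 1657 and 1265 CPM in PA 24 h (A and B), against 2582 and 2516 CPM in DMSO 24 h. The groups did not overlap, and the log2 fold change of PA over DMSO was -0.80 (SE 0.19, edgeR adjusted p = 0.0158 over all 810 entries). miR-20a-5p, its seed partner from a separate hairpin, had 3527 and 2222 CPM in PA 24 h, against 5186 and 5146 CPM in DMSO 24 h. It fell by 0.84 on the log2 scale (SE 0.21, edgeR adjusted p = 0.0229), and PA 24 h B was the lowest of all 14 libraries for both miRNAs.

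miR-18a-5p and miR-92a-3p were lower in PA at 24 h too. The highest group mean was that of DMSO 24 h for miR-18a-5p and of DMSO 12 h for miR-92a-3p. miR-18a-5p had 192 and 166 CPM in PA 24 h, against 330.4 and 330.2 CPM in DMSO 24 h, with a PA over DMSO log2 ratio of -0.88 (SE 0.18, edgeR adjusted p = 0.0091). miR-92a-3p had 1745 and 2028 CPM in PA 24 h, against 3010.4 and 3074 CPM in DMSO 24 h, with a PA over DMSO log2 ratio of -0.69 (SE 0.18, edgeR adjusted p = 0.0247). miR-92a-3p was the only one of these 4 that was lower in A than in B of PA 24 h.

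Thus 4 of 9 members were called at 24 h, all lower, where 6.67% of the 810 entries were called in either direction, 2.35% as lower and 4.32% as higher. The median log2 fold change was -0.73 over the 9 members and -0.01 over all tested entries. The other 5 members also had negative fold changes that did not pass: miR-17-3p -0.19 (SE 0.17), miR-18a-3p -0.72 (SE 0.49), miR-19a-3p -0.73 (SE 0.39), miR-19b-3p -0.63 (SE 0.34) and miR-20a-3p -0.76 (SE 0.29). Every member's PA 24 h libraries lay below both of its DMSO 24 h libraries, 9 of 9, against 26.5% of all tested entries with that arrangement. The 9 are read in the same libraries and several of them correlate. Such counts, here and at 3 and 12 h, are therefore not counts of independent observations. With library totals in place of TMM factors the median of all entries moved to -0.19, the 4 calls had log2 fold changes of -0.87 to -1.06, and miR-20a-3p was called as well. That scaling also gave 29 entries higher and 46 lower at 24 h, where TMM gave 35 higher and 19 lower. Among marker sums, that of red blood cells, nearly all miR-486-5p, was 553 and 501 CPM in PA 24 h, against 380.0 and 397 CPM in DMSO 24 h. That of fibroblast and endothelial cells was 1272 and 1161 CPM in PA 24 h, against 1291 and 1345 CPM in DMSO 24 h. The groups did not overlap for either sum. Between PA and DMSO at 24 h edgeR called 0 of 1 tested red blood cell marker and 0 of 4 tested fibroblast and endothelial markers. The part of these markers in the 24 h results was not tested.

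Each of these calls was lost when a single library was left out. No member was called when either DMSO 24 h library or PA 24 h B was left out, although the 4 log2 fold changes remained between -0.52 and -0.86. Without PA 24 h B, miR-17-5p was at -0.59 (edgeR adjusted p = 0.218) and miR-20a-5p at -0.52 (edgeR adjusted p = 0.242), the highest adjusted p-values over the 22 alternatives of each, whose lowest were 0.00208 and 0.000428. Without PA 24 h A, 6 members were called, with both miR-19 arms and miR-20a-3p added and miR-92a-3p lost. Leaving out DMSO 3 h B, which no 24 h comparison uses directly, left 1 call (miR-18a-5p), and leaving out DMSO 3 h A left 3 (miR-92a-3p lost). A fit on the 24 h libraries alone also left 1, miR-18a-5p. miR-92a-3p was at -0.68 without DMSO 3 h A and at -0.57 without PA 24 h A. Adjusted p-values over the alternatives in edgeR or DESeq2 ran from 0.00228 to 0.0928 for miR-18a-5p and from 0.00805 to 0.166 for miR-92a-3p. Across all 22 alternatives miR-18a-5p kept its call in 19, miR-17-5p and miR-20a-5p in 17 and miR-92a-3p in 15.

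**Figure D2:**
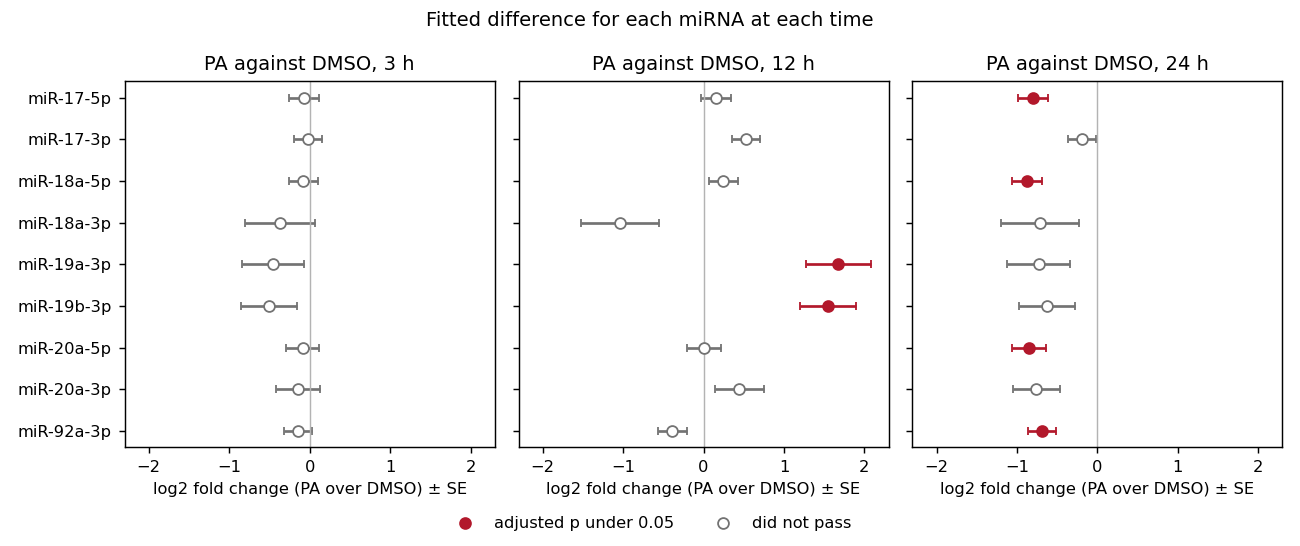
Fitted log2 fold change (PA over DMSO, x axis) ± SE of the edgeR fit for each miRNA (rows) at 3, 12 and 24 h, with filled red points where the adjusted p was under 0.05. At 3 h no point is filled, at 12 h only miR-19a-3p (1.67) and miR-19b-3p (1.55) are, and at 24 h 4 miRNAs at -0.69 to -0.88 are.

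At 12 h the 2 miR-19 arms, which share a seed, were higher in PA. miR-19a-3p had 901 and 1192 CPM in PA 12 h, against 310.0 and 346 CPM in DMSO 12 h, and its log2 fold change was 1.67 (SE 0.40, edgeR adjusted p = 0.0177). miR-19b-3p had 4607 and 5137 CPM in PA 12 h, against 1558 and 1779 CPM in DMSO 12 h, with a PA over DMSO log2 ratio of 1.55 (SE 0.35, edgeR adjusted p = 0.0114). For both, PA 12 h was the highest of the 7 group means and DMSO 12 h the lowest.

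These 2 were the only members called at 12 h, where 11.1% of entries were called in either direction, 6.3% as higher and 4.81% as lower. miR-20a-5p, whose hairpin lies between MIR19A and MIR19B1, had 4014 and 4184 CPM in PA 12 h, against 4632 and 3518 CPM in DMSO 12 h, so its groups overlapped and its log2 fold change was 0.01 (SE 0.21, edgeR adjusted p = 0.989). That value was below 0 under alternatives that included DESeq2 (-0.03) and leaving out DMSO 12 h B (-0.17). miR-92a-3p had 2587 and 2346 CPM in PA 12 h, against 3317 and 3131 CPM in DMSO 12 h, and its log2 fold change of -0.39 did not pass (SE 0.18, edgeR adjusted p = 0.172). miR-17-3p at 0.53 (SE 0.18, edgeR adjusted p = 0.0635) did not pass either. The scarce miR-18a-3p had 8.57 and 9.96 CPM in PA 12 h, against 10.8 and 29.1 CPM in DMSO 12 h, and its log2 fold change of -1.04 did not pass (SE 0.48, edgeR adjusted p = 0.183). The median log2 fold change at 12 h was 0.25 over the 9 members and -0.06 over all tested entries. PA lay above DMSO without overlap for 5 of 9 members and below for 2, against 25.3% and 26.8% of all tested entries.

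Both miR-19 calls were lost on leaving out any of their 4 libraries. No member was called when either PA 12 h library or DMSO 12 h B was left out, and without DMSO 12 h A the only call was miR-18a-3p, lower in PA. Without DMSO 3 h B, miR-19a-3p was lost. The fold changes themselves moved little, 1.51 to 1.90 for miR-19a-3p and 1.46 to 1.66 for miR-19b-3p over 20 alternatives each, with edgeR or DESeq2 adjusted p-values of 0.000213 to 0.257 and 0.000213 to 0.238. With no filter on low counts neither passed, at adjusted p-values of 0.257 and 0.238 in edgeR.

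The size of the 12 h difference depended on which DMSO libraries it was set against. Set against the 4 DMSO libraries of 3 and 24 h together, PA 12 h gave a log2 fold change of 0.39 for miR-19a-3p (SE 0.33, edgeR adjusted p = 0.753) and 0.21 for miR-19b-3p (SE 0.29, edgeR adjusted p = 0.829). In that comparison 0 of 9 members were called, and 0.247% of entries were. By unadjusted p under 0.05, 84 of 810 entries passed there, miR-17-5p, miR-18a-3p, miR-20a-3p and miR-92a-3p among them, all with negative values, and DESeq2 called 0 members. Set against the other 3 DMSO times, DMSO 12 h itself was lower in 4 members: miR-17-5p (-0.48, edgeR adjusted p = 0.0484), miR-17-3p (-0.84, edgeR adjusted p = 0.0016), miR-19b-3p (-1.05, edgeR adjusted p = 0.0265) and miR-20a-3p (-1.03, edgeR adjusted p = 0.0124). In that comparison, which uses the same DMSO 12 h libraries as the one between PA and DMSO at 12 h, 16.5% of entries were called and 7.65% as lower (8.89% as higher). The median log2 fold change there was -0.48 over the 9 members and 0.03 over all tested entries. miR-19a-3p was at -1.03 there and missed the threshold (edgeR adjusted p = 0.0562).

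The calls within DMSO differed in how they held. miR-17-3p passed in all 20 alternatives and miR-20a-3p in 18, the exceptions being the fits without DMSO 12 h A or without DMSO 12 h B. Over the alternatives miR-17-3p ranged from -0.91 to -0.76 and miR-20a-3p from -1.09 to -0.94. miR-19b-3p (-1.16 to -0.90) passed in 9, and was lost without any one DMSO library other than 0 h B, without either PA 12 h library and without PA 3 h B. miR-17-5p (-0.55 to -0.39) passed in 4, and was lost in the fits without those same libraries or without PA 3 h A. It was also lost with DESeq2, DESeq2 size factors, library totals, only the groups compared and the letters A and B as a replicate block (-0.47, edgeR adjusted p = 0.0533, with adjusted p-values of 0.0277 to 0.220 over its alternatives). miR-19b-3p was lost with no filter as well. miR-17-3p, the arm opposite to miR-17-5p, had 224 and 246 CPM in DMSO 12 h, against 376 to 484 CPM in the 6 other DMSO libraries. miR-20a-3p had 33.0 and 36.4 CPM in DMSO 12 h, against 57.2 to 87.4 CPM in those 6.

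In PA 24 h the miR-19 arms had the widest gaps between A and B of the 9 members. miR-19a-3p had 891 CPM in A and 279 CPM in B, a 3.19-fold gap, and miR-19b-3p had 4632 and 1661 CPM, a 2.79-fold gap. The same pair of libraries differed 1.31-fold for miR-17-5p, 1.59-fold for miR-20a-5p and 0.860-fold (A over B) for miR-92a-3p. Library A of PA 24 h thus lay beside DMSO 24 h, which had 1034 and 921 CPM of miR-19a-3p and 4855 and 4861 CPM of miR-19b-3p, while library B lay near DMSO 12 h. Without PA 24 h A the log2 fold change at 24 h was -1.79 for miR-19a-3p (edgeR adjusted p = 0.0032) and -1.53 for miR-19b-3p (edgeR adjusted p = 0.0038), and those were their only alternatives that passed. Without PA 24 h B it was -0.11 (edgeR adjusted p = 0.925) for miR-19a-3p and -0.04 (edgeR adjusted p = 0.979) for miR-19b-3p. DMSO 0 h showed a smaller gap, with 3025 CPM of miR-19b-3p in A and 1631 CPM in B. There every member was higher in A, from 1.17-fold (miR-17-3p) to 1.85-fold (miR-19b-3p), with miR-92a-3p at 1.38-fold.

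The test of whether the PA effect differed between 24 h and 12 h was passed by 4 members, all lower at 24 h, where 8.64% of entries passed in either direction, 3.58% as lower and 5.06% as higher (41 higher and 29 lower with TMM, 38 higher and 55 lower with library totals). The difference of log2 fold changes was -2.41 for miR-19a-3p (SE 0.56, edgeR adjusted p = 0.0167), -2.17 for miR-19b-3p (SE 0.49, edgeR adjusted p = 0.0130), -1.12 for miR-18a-5p (SE 0.26, edgeR adjusted p = 0.0140) and -0.96 for miR-17-5p (SE 0.26, edgeR adjusted p = 0.0321). Leaving out PA 12 h A or either DMSO 24 h library left 0 members called, and leaving out PA 24 h A left 7. The miR-19 arms also lost their call without either DMSO 12 h library or PA 12 h B (miR-19a-3p in the fit without DMSO 3 h B as well). miR-18a-5p lost it without PA 24 h B, and miR-17-5p without PA 24 h B, either DMSO 3 h library, DMSO 12 h A or PA 3 h A. Processing choices ended calls too. With no filter on low counts both miR-19 arms were lost (edgeR adjusted p = 0.228 for each). miR-17-5p was lost with DESeq2 size factors (edgeR adjusted p = 0.0606) and with only the groups compared (edgeR adjusted p = 0.111). miR-18a-5p kept its call in 16 of 20 alternatives (differences of -1.26 to -1.01), miR-19b-3p in 13 (-3.09 to -1.60), miR-19a-3p in 12 (-3.48 to -1.79) and miR-17-5p in 10 (-1.16 to -0.76). Between 24 h and 3 h the PA effect differed for 0 of 9 members in edgeR, with 1.23% of entries called (10 higher and 0 lower, 7 and 3 with library totals), and DESeq2 also called 0. At unadjusted p under 0.05, 101 entries passed that test, among them miR-92a-3p, miR-20a-5p, miR-18a-5p and miR-17-5p with differences of -0.54 to -0.80.

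At 3 h none of the 9 members was called by edgeR or by DESeq2. Their log2 fold changes of PA over DMSO were -0.50 to -0.02 (miR-17-3p, at -0.02, was above 0 with library totals), and every adjusted p in edgeR was 1, against 0.247% of entries called. At unadjusted p under 0.05, 14 entries passed and none was a member. PA 3 h lay below DMSO 3 h without overlap for 4 members, against 16.0% of all tested entries. miR-19b-3p showed the widest gap of the abundant arms, with 2798 and 2315 CPM in PA 3 h and 3574 and 3681 CPM in DMSO 3 h, a log2 fold change of -0.50 (SE 0.34). miR-19a-3p had 542 and 406 CPM in PA 3 h, against 644 and 655 CPM in DMSO 3 h.

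The other abundant arms differed less between PA and DMSO at 3 h. miR-17-5p had 2014 and 2220.0 CPM in PA 3 h, against 2234 and 2224 CPM in DMSO 3 h. miR-20a-5p had 4629.5 and 4390.2 CPM in PA 3 h, against 4543 and 5043 CPM in DMSO 3 h. miR-92a-3p had 3199 and 2591 CPM in PA 3 h, against 3207 and 3215 CPM in DMSO 3 h. The groups overlapped for miR-20a-5p, and both PA libraries lay below DMSO for miR-17-5p and miR-92a-3p. The gap was small only for PA 3 h B in miR-17-5p and for PA 3 h A in miR-92a-3p. In DMSO 0 h, before any treatment time, A was above B for each of them, with 2534 and 1778 CPM of miR-17-5p, 4628 and 3411 CPM of miR-20a-5p and 3087 and 2233 CPM of miR-92a-3p. miR-18a-5p had 247 and 252 CPM in PA 3 h, against 283 and 243 CPM in DMSO 3 h, and 326 and 247 CPM in DMSO 0 h.

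Apart from DMSO 12 h against the other DMSO times, with 4 members called, comparisons between times within one treatment called few members. In PA 24 h against PA 3 h, miR-20a-3p was lower (-1.10, SE 0.29, edgeR adjusted p = 0.0433), with 44.5 and 21.0 CPM at 24 h and 80.6 and 65.7 CPM at 3 h. It was the only member called, where 3.95% of entries were called, 1.23% as lower and 2.72% as higher (22 higher and 10 lower, 18 and 14 with library totals), and it kept that call in 9 of 22 alternatives. It was lost when any single library other than PA 24 h A or the pair of DMSO 12 h was left out, with log2 fold changes of -0.73 (without PA 24 h B) to -1.26 (without PA 3 h B). PA 12 h against PA 3 h gave 0 of 9 members and 0 of 810 entries in edgeR. There 82 entries passed at unadjusted p under 0.05, and DESeq2 called 4 entries and 0 members. The miR-19 arms stood at 1.14 (miR-19a-3p, SE 0.39) and 0.93 (miR-19b-3p, SE 0.35) in that comparison. DMSO 24 h against DMSO 0 h called 0 of 9 members in edgeR (3.58% of entries, 2.59% as lower, with 144 at unadjusted p under 0.05) and 0 in DESeq2, with miR-19a-3p at 1.05 (SE 0.39) and miR-19b-3p at 1.06 (SE 0.35).

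Because all 9 are read in the same library, their shares of one another do not depend on library scaling. miR-19a-3p and miR-19b-3p together made up 24.0% and 21.4% of the 9-miRNA sum in PA 3 h, 37.4% and 41.6% in PA 12 h and 42.3% and 24.4% in PA 24 h. In DMSO libraries the share was 24.5% and 19.4% for time 0 h, then 28.0% and 27.8% for 3 h. It was 15.7% and 19.3% for 12 h, and 33.8% and 33.4% for 24 h. The sum itself was 13065 and 7940.4 CPM in PA 24 h, against 17446 and 17298 CPM in DMSO 24 h. At 12 h it was 14732 and 15221 CPM in PA, against 11889 and 11023 CPM in DMSO.

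**Figure D3:**
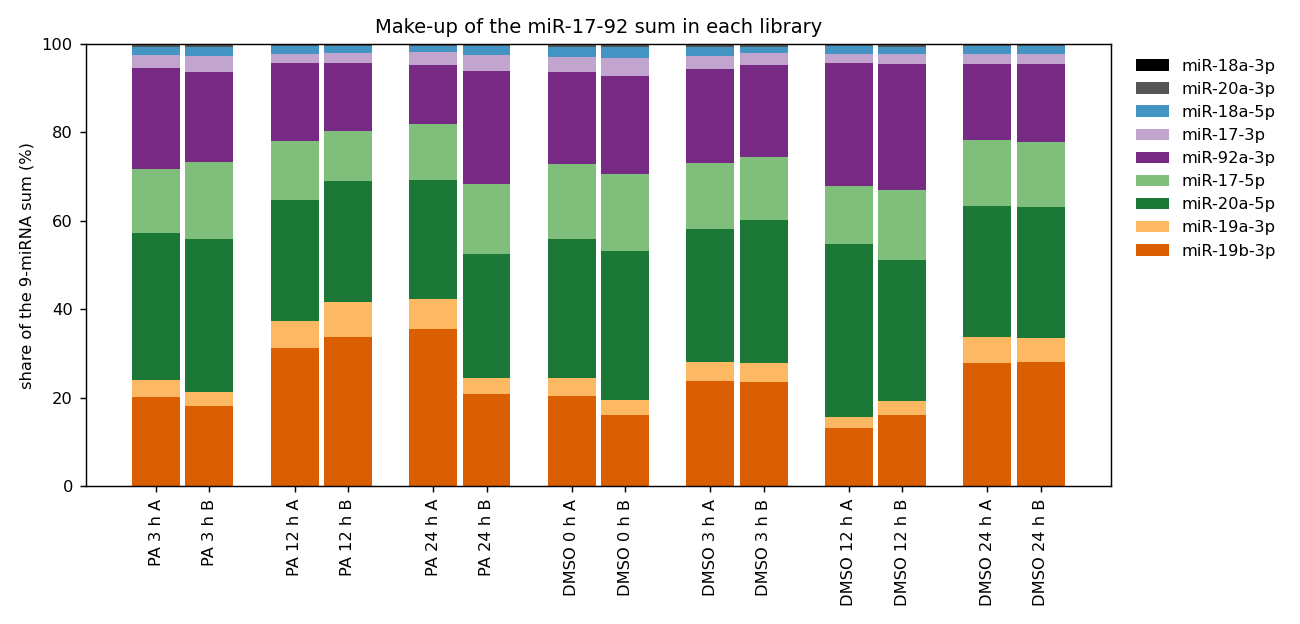
Share of each miRNA in the 9-miRNA sum (stacked bars, percent, linear axis from 0) in each of the 14 libraries, PA libraries on the left. The 2 miR-19 arms at the base take 37.4% and 41.6% in PA 12 h and 15.7% and 19.3% in DMSO 12 h, and split the PA 24 h libraries at 42.3% and 24.4%.

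The miR-19 arms kept step with each other in every library, although they come from separate hairpins. Their sequences differ by 1 base, and how reads that match both were assigned is not given in the sources used here, so the share of reads exchanged between them is not known. miR-19a-3p stood at 16.8 to 23.2 per 100 miR-19b-3p over all 14 libraries, while miR-19b-3p ranged from 33.6 to 131 per 100 miR-20a-5p. That second ratio was 115 and 123 in PA 12 h, against 33.6 and 50.6 in DMSO 12 h, and 131 and 74.7 in PA 24 h, against 93.6 and 94.5 in DMSO 24 h. As a description over the 14 libraries, which share their depth and scaling, Pearson's r of log2 CPM was 0.99 between miR-19a-3p and miR-19b-3p, 0.91 between miR-17-5p and miR-18a-5p and 0.82 between miR-17-5p and miR-20a-5p. It was -0.03 between miR-19b-3p and miR-92a-3p, which are neighbours in the transcript.

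The 2 arms of a hairpin did not always keep step either. miR-17-3p stood at 22.4 and 22.5 per 100 miR-17-5p in PA 24 h, against 14.56 and 14.96 in DMSO 24 h, without overlap. The ratio was 16.3 and 20.6 in PA 12 h, against 14.2 and 14.1 in DMSO 12 h, and 20.1 and 20.9 in PA 3 h, against 20.4 and 19.0 in DMSO 3 h. It was 19.1 and 23.3 in DMSO 0 h, so the 4 DMSO libraries of 12 and 24 h were the lowest of the 14. With 2 libraries a group an exact permutation test cannot give a two-sided p below 0.333, so the ratio is given as a description, without a test. miR-20a-3p stood at 0.712 to 1.89 per 100 miR-20a-5p. miR-18a-3p stood at 3.17 to 14.8 per 100 miR-18a-5p, a range that rests on 15 to 69 counts of miR-18a-3p a library.

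The opposite arms of the other 3 hairpins were scarce. miR-19b-1-5p totalled 758 counts and miR-92a-1-5p 771 counts over the 14 libraries, and miR-19a-5p, with 35 counts, did not pass the filter. For the 2 tested, edgeR called no difference between PA and DMSO at any of the 3 times. miR-92a-1-5p was at -1.30 at 12 h (SE 0.42, edgeR adjusted p = 0.0572), where DESeq2 called it, and at -1.10 at 24 h (SE 0.42), with unadjusted p under 0.05 at both times. miR-19b-1-5p was lower in DMSO 12 h than at the other DMSO times (-1.08, edgeR adjusted p = 0.0207), as was miR-19b-3p from the other arm of its hairpin.

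Because targets pair with the seed, the members were set beside all miRNAs that share it. miR-17-5p and miR-20a-5p made up 47.3% to 58.0% of the miR-17 seed sum, the rest being chiefly miR-93-5p (3694 CPM on average) and miR-106b-5p (1341 CPM) from the paralogous miR-106b-25 cluster. That sum was 9795 and 7368 CPM in PA 24 h, against 13833 and 14191 CPM in DMSO 24 h. miR-92a-3p made up 27.7% to 43.2% of its family, beside miR-92b-3p (1658 CPM), miR-25-3p (1549.9 CPM) and miR-32-5p (1301 CPM). The members supplied 97.8% to 100% of the miR-18 seed and all of the miR-19 seed, whose sum was 5508 and 6329 CPM in PA 12 h, against 1868 and 2125 CPM in DMSO 12 h.

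**Figure D4:**
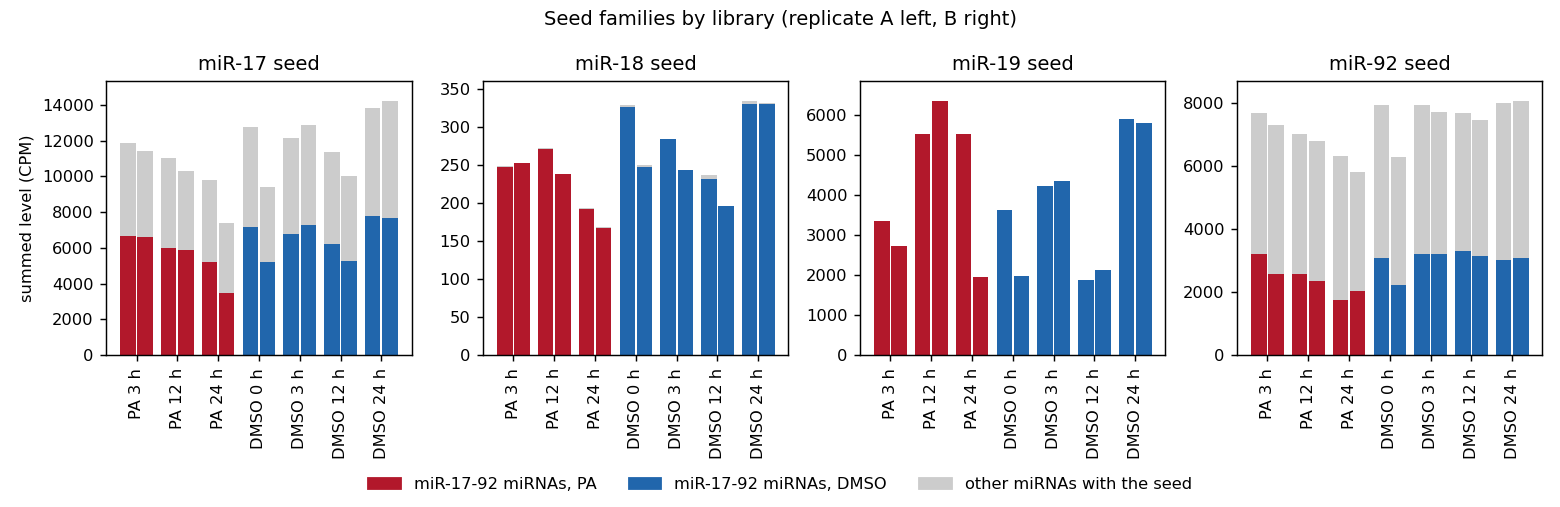
Summed level in CPM (linear axes from 0, one scale per panel) of all miRNAs sharing the miR-17, miR-18, miR-19 and miR-92 seeds in each library, coloured for miR-17-92 miRNAs (red PA, blue DMSO) and grey for other miRNAs with the seed. Grey fills much of the miR-17 and miR-92 bars and little or none of the miR-18 and miR-19 bars.

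The paralogous clusters give the nearest relatives. Of the 10 miR-106a-363 arms on chromosome X, 2 were tested, among them miR-106a-5p, which differs from miR-17-5p by C1A. At 24 h miR-106a-5p was lower in PA in edgeR (-0.97, SE 0.26, adjusted p = 0.0339) and was not called by DESeq2. It stood at 1.96 to 4.84 per 100 miR-17-5p, and because they differ by 1 base the share of its reads that came from miR-17-5p is not known. The remaining 9 arms of that cluster summed to 4.41 to 11.1 CPM. The arms unique to the X copies, miR-19b-2-5p and miR-92a-2-5p, had 4 and 2 counts over all 14 libraries. All 6 arms of miR-106b-25 on chromosome 7 were tested. Of these 1, miR-93-5p, was lower in PA at 24 h (-0.68, SE 0.19, edgeR adjusted p = 0.0351), which DESeq2 called as well. At 3 and 12 h edgeR and DESeq2 called 0 of the 6, with 0 and 2 at unadjusted p under 0.05 in edgeR. miR-106b-5p was at -0.23 at 24 h (SE 0.18, edgeR adjusted p = 0.515) and was lower in DMSO 12 h than at the other DMSO times (-0.72, edgeR adjusted p = 0.0047).

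miRNAs reported to be repressed by MYC in lymphoma cells were counted too, because MYC is known to activate this cluster. Neither MYC nor its action on these miRNAs was measured in these PANC-1 libraries. Of 21 listed, 20 were tested. At 24 h 0 were called by edgeR (2 at unadjusted p under 0.05) and 1 by DESeq2, miR-30d-5p, with a median log2 fold change of 0.03 and single values of -0.45 to 0.43. At 12 h 5 were higher in PA (miR-15a-5p 0.59, miR-23a-3p 0.87, miR-29b-3p 0.58, miR-30e-5p 0.75 and the p53 target miR-34a-5p 1.12), and 2 were lower (miR-30d-5p -0.69 and miR-146a-5p -0.62), beside 6.3% and 4.81% of all entries. The median at 12 h was 0.21, against -0.06 over all tested entries. In DMSO 12 h against the other DMSO times, which shares the DMSO 12 h libraries with that comparison, 9 of the 20 were lower and 3 higher, beside 7.65% and 8.89% of all entries.

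The tested entries outside the paralogs whose log2 CPM was most like the members' mean over the 14 libraries were let-7f-2-3p (Pearson's r 0.88), miR-935 (0.83), miR-29a-5p (0.83), miR-299-3p (0.81) and miR-579-3p (0.81). The least like were miR-548v (-0.86), miR-549a (-0.86) and the unnamed entry chr10_21613 (-0.84). These describe 14 libraries that share depth and scaling. Of the members themselves miR-17-5p was nearest their mean (0.96) and miR-18a-3p farthest from it (0.36).

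Base composition moved with the contrast in which the miR-19 arms stood out. miR-19a-3p and miR-19b-3p hold 34.8% and 39.1% G and C, miR-20a-5p 39.1%, miR-17-5p 47.8% and miR-92a-3p 54.5%. Over 597 tested miRNAs with a RefSeq sequence, Spearman's rho between G and C content and the difference of mean log2 CPM was -0.29 for PA against DMSO at 12 h, 0.27 for DMSO 12 h against the other DMSO times and 0.09 for PA against DMSO at 24 h. At 12 h the median difference was 0.32 for the 133 miRNAs at or below the content of miR-19b-3p and -0.03 for those above it. Between libraries A and B of PA 24 h rho was -0.23. miR-20a-5p and miR-19b-3p have the same content, and 12 h log2 fold changes of 0.01 and 1.55. The part of base composition in these results was not tested. Markers of fibroblast and endothelial cells, all 5 detected and 4 tested (miR-214-3p, with 21 counts in all, was not), had a sum that also differed at 12 h. It was 1303 and 1052 CPM in PA 12 h, against 813 and 949 CPM in DMSO 12 h. Of the 4 tested, edgeR called 0 between PA and DMSO at 12 h. In DMSO 12 h against the other DMSO times, which include DMSO 0 h B, 2 of the 4 were lower, beside 7.65% of all entries. The red blood cell sum was 406 and 503 CPM in PA 12 h, against 540 and 591 CPM in DMSO 12 h, and its 1 tested marker was not called between them. The part of these markers was not tested either.

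**Figure D5:**
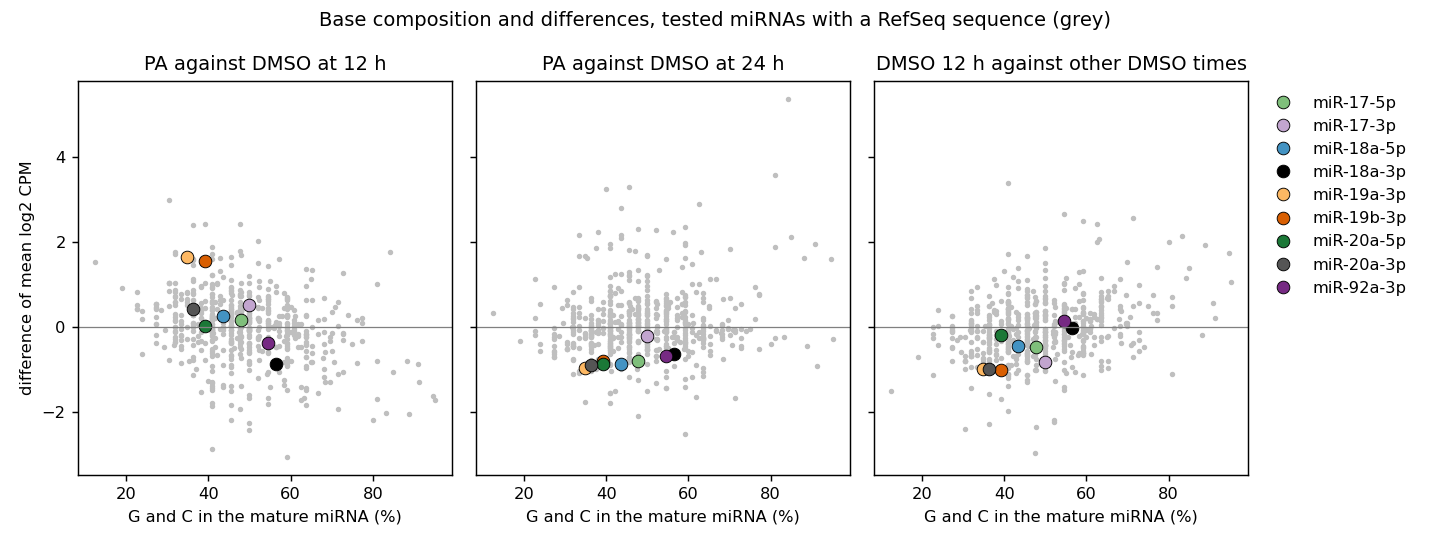
Difference of mean log2 CPM (y axis) against the percentage of G and C in the mature miRNA (x axis) for 597 tested miRNAs (grey) and the 9 miR-17-92 miRNAs (coloured) in PA against DMSO at 12 h, PA against DMSO at 24 h and DMSO 12 h against the other DMSO times. The grey cloud tilts down in the first panel (rho -0.29) and up in the third (0.27), and miR-19a-3p and miR-19b-3p lie near 1.6 in the first.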

How the data were processed

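Small RNA-seq libraries of PANC-1 cells were analysed from the deposited table of read counts per miRNA entry, made by the authors. Per the submitters' processing notes, bcl2fastq, Bowtie, edgeR and the genome GRCh38 were used, while their versions, roles, strand setting, annotation release and the handling of reads that match several loci are not given in the sources used here. A deposited table of normalized values was not used. The count table has 14 value columns, and 0 lack a sample. Entries were kept with the filterByExpr function of edgeR (minimum count 10, minimum total 15), scaled by TMM, and fitted with edgeR's quasi-likelihood test (edgeR 4.0.16 in R 4.3.3) over all 14 libraries with 7 groups. P-values were adjusted by Benjamini and Hochberg over 810 entries, with a threshold of 0.05. SE is the log2 fold change divided by the root of its F statistic. CPM is the count over library total times TMM factor.

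All 9 members were named. Entries of the fixed lists (opposite arms, the 2 paralogous clusters, MYC-repressed miRNAs) were named where they passed or were the most abundant, as were the 5 most and 3 least similar entries. Members and lists were chosen with earlier results of these data known. Alternatives were DESeq2 1.42.0, its size factors, library totals, no filter, only the groups compared, a replicate block, each library left out, and seeds of bases 2 to 7. The steps were tested on simulated data. Depth per library was 1032391 to 3111014 counts, so 3 counts, the limit that a count of 0 allows, correspond to 1.02 to 2.73 CPM. Sequences are from RefSeq, matched for 9 of 9 members.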

Additional observations from a re-analysis of the deposited data

Results flagged for a closer look

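For 4 members the test of the PA effect at 24 h minus that at 12 h passed in edgeR, so the difference between PA and DMSO was not the same at the 2 times in these libraries. The difference in log2 fold change was -2.41 for miR-19a-3p (edgeR adjusted p = 0.0167) and -2.17 for miR-19b-3p (edgeR adjusted p = 0.0130). Both arms were higher in PA than in DMSO at 12 h and had unequal PA libraries at 24 h. For miR-18a-5p the difference was -1.12 (edgeR adjusted p = 0.0140) and for miR-17-5p -0.96 (edgeR adjusted p = 0.0321). These 2 were lower in PA than in DMSO at 24 h, and their log2 fold changes of 0.25 and 0.15 at 12 h did not pass. The DMSO 12 h libraries, lower in miR-17-5p and miR-19b-3p than the other DMSO times, enter each of these 4 differences, and their part was not tested. Groups of 2 are too small for a check of single outlying libraries.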

How the results depend on the processing

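Of 1908 values of the members under alternatives, 1727 kept direction and side of the threshold, 102 lost a call, 43 gained one and 36 changed sign. Most of the 1908 belong to results that were not called in the main fit and so had no call to lose. The called results were less stable than that total implies. They kept their call in as few as 4 of 20 alternatives (miR-17-5p in DMSO 12 h) and as many as 20 of 20 (miR-17-3p in DMSO 12 h). Where a count or call changed, the cause was not tested. Members called went to 0 (of 2) at 12 h with no filter, to 1 (of 4) at 24 h with only the groups compared, and to 7 (of 4) for the 24 h minus 12 h effect with library totals. PA 24 h against PA 3 h (1 called) gave 0 with DESeq2 size factors or only the groups compared, 2 with DESeq2, and 3 with library totals, no filter, or both DMSO 12 h libraries left out. That last setting, like leaving out the 4 libraries of 12 h, was chosen after seeing the data. With only the groups compared, 2 members were called in DMSO 24 h against 0 h and 2 in PA 12 h against PA 3 h (0 in the fit of all 14 libraries). With library totals the sum of the 9 averaged 14611 CPM in DMSO 3 h (15313 with TMM) and 18189 CPM in DMSO 24 h (17372). Leaving out 1 library at a time gave 0 to 3 members at 12 h, 0 to 6 at 24 h, 0 to 1 for 24 h minus 3 h, 0 to 7 for 24 h minus 12 h, 1 to 6 in DMSO 12 h, 0 to 2 in DMSO 24 h against 0 h, 0 to 1 in PA 12 h and 0 to 3 in PA 24 h against PA 3 h, and 0 to 0 at 3 h and for PA 12 h against DMSO 3 and 24 h. A group left with 1 library was assumed to vary like the others.

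Entries called with only the groups compared were 33 at 12 h (90), 43 for 24 h minus 12 h (70), 72 in DMSO 24 h against 0 h (29), and 20 each in PA 12 h (0) and PA 24 h (32) against PA 3 h. With no filter they were 21 for 24 h minus 3 h (10), 48 in DMSO 24 h against 0 h and 8 in PA 12 h against PA 3 h. Without both DMSO 12 h libraries they were 52 in PA 24 h against PA 3 h, 44 in DMSO 24 h against 0 h (47 without all 4 libraries of 12 h) and 3 in PA 12 h against PA 3 h. DESeq2 called 17 for 24 h minus 3 h and 4 in PA 12 h against PA 3 h. PA 12 h against DMSO 3 and 24 h, with 2, gave 4 to 6 under these settings other than library totals. Library totals moved the median of all entries from -0.01 to -0.19 at 24 h, to -0.19 for 24 h minus 3 h and to -0.07 for 24 h minus 12 h.

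Signs changed only for values that had not passed. At 12 h miR-20a-5p (0.01) was -0.0276 with DESeq2 and with its size factors, -0.0380 with library totals and -0.0111 with only the groups compared. At 3 h miR-17-3p (-0.02) was 0.0018 with library totals and 0.0460 with no filter, and in DMSO 12 h miR-18a-3p (0.04) was -0.0222 with no filter. Leaving out 1 library gave, at 3 h, -0.10 to 0.071 for miR-17-3p, -0.17 to 0.0398 for miR-18a-5p, -0.73 to 0.22 for miR-18a-3p, -0.16 to 0.0025 for miR-20a-5p, -0.30 to 0.0167 for miR-20a-3p and -0.31 to 0.0161 for miR-92a-3p. It gave -0.17 to 0.23 for miR-20a-5p at 12 h and -0.38 to 0.0052 for miR-17-3p at 24 h. For 24 h minus 3 h it gave -0.38 to 0.0187 for miR-17-3p, -0.93 to 0.10 for miR-18a-3p, -1.35 to 0.35 for miR-19a-3p and -1.05 to 0.46 for miR-19b-3p, and for 24 h minus 12 h -0.51 to 0.92 for miR-18a-3p. In DMSO 12 h it gave -0.79 to 0.65 for miR-18a-3p and -0.38 to 0.00098 for miR-20a-5p, and in DMSO 24 h against 0 h -0.0161 to 0.42 for miR-92a-3p. In PA 24 h against PA 3 h it gave -0.78 to 0.89 for miR-19a-3p and -0.64 to 0.84 for miR-19b-3p, and in PA 12 h against PA 3 h -0.081 to 0.14 for miR-18a-5p.

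With the letter A or B as a replicate block, 2 members were called at 12 h, 4 at 24 h, 4 for 24 h minus 12 h, 5 in DMSO 12 h (4 without the block; miR-17-5p lost, miR-18a-5p and miR-19a-3p gained) and 1 in PA 24 h against PA 3 h. The A minus B deviations of PA and DMSO correlated at 0.04 at 3 h, -0.12 at 12 h and -0.02 at 24 h, so the letters were not taken as pairs. The scarcest member, miR-18a-3p, is limited by depth.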
